A study of Mus musculus with 16 samples.

Results

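The 33 genes of the constitutive proteasome, the large protease that takes apart proteins marked with ubiquitin, were followed in lung endothelial cells of tumour-bearing mice. They are all rows of the deposited expression table whose symbol is Psma, Psmb, Psmc or Psmd with a number, without Psmb8, Psmb9 and Psmb10, which code for the immunoproteasome. The table holds 17715 entries, 14303 of which were tested, and all 33 genes were among them. Psma8, Psmb11 and Psmd9 were not analysed here.

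Endothelial cells, which line the blood vessels, were sorted by flow cytometry from the lungs of female C57BL/6N mice, and RNA was sequenced from 4 libraries per time point, described as independent biological replicates. The d0 group held wild-type mice without a tumour. The other mice had received Lewis lung carcinoma (LLC) cells under the skin: at d15 they carried the primary tumour, at d22 it had been resected, and at d36 they carried metastases. No genetic change is named for any group, and neither the markers of the sort nor the age of the mice was stated. Replicates bear the numbers of their titles. These are 1, 2, 3 and 4 for d0, then 3, 4, 5 and 6 for d15. The d22 libraries are numbered 1, 4, 5 and 6, and those of d36 1, 7, 8 and 9. Library values follow that order throughout. One library of the d36 group, replicate 1, has a title that says day 29.

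Values are RPKM, reads scaled to gene length and to the size of the library, so they are shares of a library, and fewer cells of a type and less RNA per cell cannot be told apart. The step between low values fitted best with a depth of 93.3 to 152.7 M reads a library. A whole multiple of those numbers is allowed as well. In some libraries other depths fitted nearly as well, so these are rough estimates. For d36 replicate 1 the strength of the fit was 0.432 for the best depth and 0.43 for the next. All 11 pan-endothelial markers were present, with a summed level of 3970 to 7018 RPKM per library. Sftpc, a defining gene of alveolar epithelium, was also present at 173 to 1827 RPKM. Of the other lung epithelium markers, Scgb1a1 was at 139 to 2730 RPKM and Sftpa1 at 9.02 to 61.4 RPKM. Sftpb was at 5.42 to 51.8 RPKM, Ager at 5.74 to 32.8 RPKM and Krt18 at 0.686 to 90.1 RPKM. The epithelial adhesion gene Epcam was at or below 0.174 RPKM in all 16 libraries. At d36 the summed level of 4 carcinoma-associated genes was 752, 664 and 492 RPKM in replicates 1, 7 and 8 and 45.0 RPKM in replicate 9, against 2.82 to 4.45 RPKM at d0, so replicate 9 stood apart from its group.

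The proteasome has a barrel-shaped core, the 20S particle, whose outer rings are built from alpha subunits and inner rings from beta subunits. Psmb5, Psmb6 and Psmb7 carry the active sites. The barrel is capped by the 19S regulatory particle, in which a ring of ATPases (the Psmc genes) unfolds the substrate and feeds it to the core, and non-ATPase subunits (most Psmd genes) hold the ubiquitin chain and remove it. Since a particle needs its subunits in fixed proportions, their genes are known for being regulated together, among others by Nfe2l1, which acts when proteasome activity falls short. In immune activation Psmb8, Psmb9 and Psmb10 take the place of Psmb5, Psmb6 and Psmb7.

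The 33 genes fall into 7 alpha subunits, 7 beta subunits, 6 ATPases, 11 non-ATPase subunits of the 19S particle and 2 chaperones of its assembly, Psmd5 and Psmd10. They are spread over 15 chromosomes (GRCm38), with at most 6 on one of them, chromosome 11.

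All 33 transcripts were detected in tumour-free mice, at mean levels that differed 33.3-fold per unit of length. Psmb1, a beta subunit without an active site, was highest at 154 ± 7.36 RPKM (SD, n = 4), followed by the ATPase Psmc4 at 133 ± 6.51 RPKM and the alpha subunit Psma6 at 124 ± 2.31 RPKM. The lowest levels were those of Psmd11, a scaffold subunit of the 19S lid, at 4.61 ± 0.255 RPKM, and of the alpha subunit Psma4 at 6.74 ± 1.60 RPKM. The median of the 33 means was 37.2 RPKM, which was the level of Psmb5. Within the alpha ring, whose subunits are present in equal numbers, the means ran over an 18.4-fold range, and within the beta ring over a 9.21-fold range. Psmb6 stood at 69.2 ± 4.14 RPKM, Psmb5 at 37.2 ± 2.10 RPKM and Psmb7 at 16.7 ± 0.769 RPKM, and the d0 libraries of these 3 catalytic genes did not overlap. Of the 32 neighbouring pairs in the order of the levels, 25 overlapped between their d0 libraries and 7 were apart. Across all 16 libraries a single gene varied by 1.34-fold (Psmd11) to 2.20-fold (Psmd3) between its lowest and highest value, less than the range between genes.

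**Figure D1:**
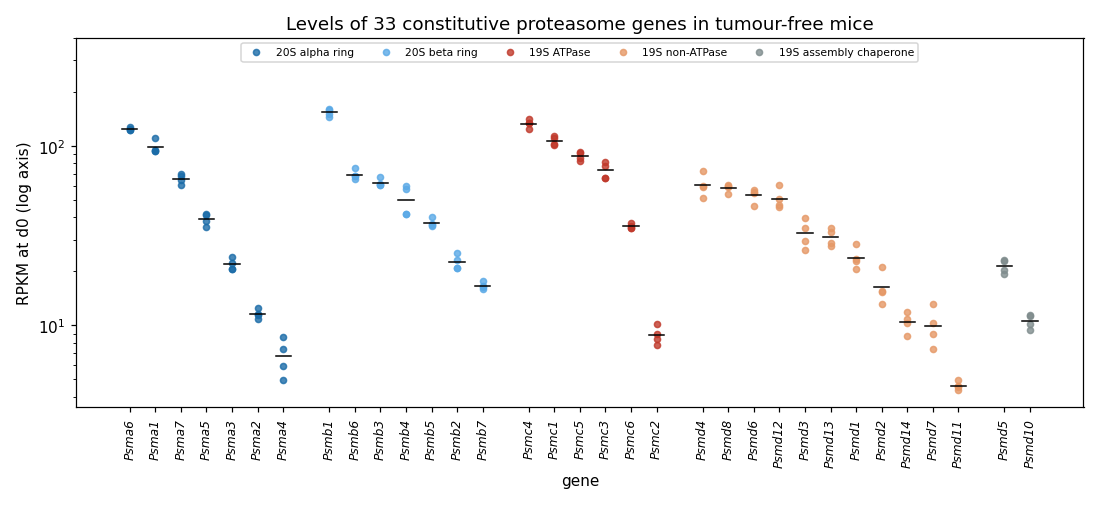
RPKM (log axis) of the 33 genes in the 4 libraries of d0, by role in the particle; points are libraries and bars are means. The means run from 4.61 RPKM (Psmd11) to 154 RPKM (Psmb1), and low and high genes occur side by side in both rings of the core.

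The sequence before the start of 4 genes is shown because these genes moved in different ways: Psmb5, Psmb6 and Psma5 were among those that fell at d22, and Psmd14 rose at d36. The stretches end just before the RefSeq start, or for Psmb5 before the annotated GENCODE exon, and are written 5′ to 3′ on the strand of the gene (RefSeq, GRCm38.p6). They are chr14:54618023-54618245 on the minus strand for Psmb5, chr11:70525107-70525356 on the plus strand for Psmb6, chr3:108256676-108256925 on the plus strand for Psma5 and chr2:61711444-61711693 on the plus strand for Psmd14. Capitals mark matches to TGACNNNGC, a core of the antioxidant response element to which factors of the Nfe2l1 and Nfe2l2 family bind, to CCGGAA, a core of the sites of ETS factors such as GABPA, or to CCAAT, the NF-Y box, each on either strand.
Psmb5: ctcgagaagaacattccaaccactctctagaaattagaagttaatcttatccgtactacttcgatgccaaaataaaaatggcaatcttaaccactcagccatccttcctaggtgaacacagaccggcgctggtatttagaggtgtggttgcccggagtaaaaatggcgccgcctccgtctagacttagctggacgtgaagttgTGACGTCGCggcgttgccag
Psmb6: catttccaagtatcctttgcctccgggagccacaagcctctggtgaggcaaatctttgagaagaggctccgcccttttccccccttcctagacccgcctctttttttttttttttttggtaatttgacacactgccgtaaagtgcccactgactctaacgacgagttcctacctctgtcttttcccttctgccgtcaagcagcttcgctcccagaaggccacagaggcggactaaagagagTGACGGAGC
Psma5: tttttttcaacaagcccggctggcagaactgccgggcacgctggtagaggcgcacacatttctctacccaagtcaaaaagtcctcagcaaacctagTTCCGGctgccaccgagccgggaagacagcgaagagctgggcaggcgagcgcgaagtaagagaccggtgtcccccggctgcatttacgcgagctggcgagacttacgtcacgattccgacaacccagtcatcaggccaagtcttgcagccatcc
Psmd14: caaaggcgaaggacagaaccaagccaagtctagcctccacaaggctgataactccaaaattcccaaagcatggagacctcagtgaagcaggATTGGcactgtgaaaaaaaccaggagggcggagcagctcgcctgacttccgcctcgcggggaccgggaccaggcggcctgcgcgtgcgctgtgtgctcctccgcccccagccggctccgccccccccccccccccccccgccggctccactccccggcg
Psmb5 held TGACNNNGC from position -47 and Psmb6 from position -9 relative to the RefSeq start, Psma5 held CCGGAA on the minus strand from -154, and Psmd14 held CCAAT on the minus strand from -159. None of these matches overlaps another.

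A promoter window of 300 bases (250 before to 50 after the start) was found by symbol for 27 of the 33 genes. No window was found for Psmb1, Psmb2, Psmb7, Psmc3, Psmd3 and Psmd7. CCGGAA was present in 15 of the 27 genes (55.6%), against 14.9% of all 32851 windows and 18.7% of the 21263 windows of protein-coding genes. CCAAT was present in 11 genes (40.7%, against 37.4% and 38.2%). TGACNNNGC was present in 4 genes (14.8%, against 12.4% and 13.0%): Psmb5, Psmb6, Psmc6 and Psmd12. Among the 11 genes with a window that fell at d22, 4 held CCGGAA, 5 held CCAAT and 2 held TGACNNNGC. Among the 16 that did not fall, the numbers were 11, 6 and 2. A match describes the letters in the window and does not show that a factor binds there.

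Comparing d15 with d0 asks what differed while the primary tumour was in place. No proteasome gene rose or fell in limma at an adjusted p of 0.05 (background: 0.608% of all tested entries rose and 0.573% fell). At an unadjusted p of 0.05, 6 genes were lower (9.19% of all entries) and 0 higher (7.26%). They were the ATPases Psmc4 and Psmc5, the catalytic Psmb6 and Psmb5, and the lid subunits Psmd8 and Psmd6. In 6 genes (Psma1, Psmb5, Psmb6, Psmc4, Psmc5 and Psmd8) all 4 libraries of d15 lay below all 4 of d0, against 6.94% of all entries, and 0 genes were higher without overlap (5.34%). The log2 fold change was negative for 29 of the 33 genes, against 53.3% of all entries, with a median of -0.14, against -0.02 for all entries. The authors' deposited table gives Psmc4 as the only member of the family under 0.05 at d15, with a log2 fold change of -0.30 (adjusted p = 0.0422). Its headers do not name the group that each time point was compared with. Of all entries with an adjusted p there, 2.82% fell at d15. Sftpc was at 619 to 1827 RPKM at d15 against 352 to 494 RPKM at d0. Sftpb and Sftpa1 were likewise higher without overlap. Scgb1a1, Ager, Krt18 and Epcam overlapped with d0, and none of the 6 tested lung epithelium genes passed. The leukocyte markers summed to 48.3 to 134 RPKM against 25.8 to 47.9 RPKM, with 0 of 7 tested genes passing. The part of other cell types at d15 was not tested.

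Psmc4, an ATPase of the 19S base, had 140, 125, 134 and 133 RPKM in the d0 libraries and 99.5, 116, 98.3 and 104 RPKM at d15. Its highest d15 library thus lay below its lowest d0 library. The fitted log2 fold change was -0.35 ± 0.10 (SE, adjusted p = 0.0927 in limma), which does not pass the test. Psmc5, another ATPase of the ring, had a log2 fold change of -0.33 ± 0.11 (adjusted p = 0.131).

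After resection of the tumour (d22), 13 of the 33 genes fell against d0 and 0 rose. Of all tested entries 7.1% fell and 8.09% rose. At an unadjusted p of 0.05, 20 genes were lower (14% of all entries) and 1, Psmd1, was higher (15.8%). In 19 genes all 4 libraries of d22 lay below all 4 of d0, against 12.3% of all entries, and 0 were higher without overlap (14.2%). The log2 fold change was negative for 28 genes (46.9% of all entries), with a median of -0.30, against 0.02 for all entries. The genes that fell did so by 23.4% (Psmb2) to 34.9% (Psmb5) in mean RPKM.

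The core particle held most of these genes. Of its 14 subunit genes 9 fell: Psma1, Psma5, Psma6 and Psma7 of the alpha ring and Psmb1, Psmb2, Psmb3, Psmb5 and Psmb6 of the beta ring. Of the 19 genes of the 19S particle 4 fell: the ATPases Psmc1, Psmc4 and Psmc5 and the non-ATPase Psmd8. The median log2 fold change was -0.43 for the 20S genes and -0.23 for the 19S genes, and within the latter -0.38 for the ATPases and -0.09 for the non-ATPase subunits. Whether these classes differ was not tested.

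Psmb5, the subunit with chymotrypsin-like activity and the main target of bortezomib, fell the most. It had 40.3, 36.6, 36.3 and 35.6 RPKM at d0 and 27.8, 27.0, 21.6 and 20.3 RPKM at d22. The lowest d0 library was above the highest d22 library. It fell by 0.61 ± 0.12 on the log2(RPKM + 1) scale (SE, adjusted p = 0.00466). It is a protein-coding gene at 54614119 to 54618022 of chromosome 14, minus strand (GRCm38).

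Psmb6, which has caspase-like activity (chromosome 11, 70525367 to 70527858, plus strand), had 75.1, 68.4, 67.6 and 65.5 RPKM at d0 and 52.6, 49.9, 52.1 and 40.6 RPKM at d22. These groups did not overlap either, and the gene fell by 0.50 ± 0.11 (adjusted p = 0.00567). Psmb7, which has trypsin-like activity, had 16.4, 16.02, 16.5 and 17.8 RPKM at d0 and 14.3, 14.7, 15.2 and 11.5 RPKM at d22. Its groups did not overlap, but the log2 fold change of -0.25 ± 0.10 did not pass (adjusted p = 0.109). Its locus is 38588036 to 38644087 of chromosome 2, minus strand.

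Psmc4 (chromosome 7, 28041707 to 28050101, minus strand) had 102, 105, 103 and 81.3 RPKM at d22, all below its d0 values given above. It fell by 0.45 ± 0.10 (adjusted p = 0.00822). Psmc5 (chromosome 11, 106256154 to 106263120, plus strand) had 92.5, 82.2, 86.1 and 91.5 RPKM at d0 and 68.9, 66.1, 67.2 and 52.1 RPKM at d22. It fell by 0.47 ± 0.11 (adjusted p = 0.00846), again without overlap between the groups. The other 9 genes that fell had adjusted p-values from 0.00856 (Psma5) to 0.0359 (Psmb2).

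A few genes of the family did not share the direction. Psmd1, the large scaffold of the 19S base, had a mean of 28.8 ± 2.23 RPKM at d22 against 23.8 ± 3.30 RPKM at d0 (log2 fold change 0.27 ± 0.12, adjusted p = 0.146). Psma4, the alpha subunit with the lowest level, had 7.86 ± 0.913 RPKM against 6.74 ± 1.60 RPKM. Psmd3, a subunit of the 19S lid, spread widely in every group, with 28.9 to 48.5 RPKM at d22 and 26.3 to 39.6 RPKM at d0.

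The authors' deposited table gives 16 genes of the family as lower at d22 and 0 as higher, of 32 with an adjusted p, against 9.18% and 16.5% of all entries with one. All 13 genes named above are among the 16, and the others are Psma2, Psmc3 and Psmd4. The sums over the 33 genes were 1745, 1568, 1515 and 1609 RPKM in the d0 libraries and 1322, 1354, 1275 and 1086 RPKM in the d22 libraries, with no overlap. Replicate 6 of d22 was the lowest of its group in 28 of the 33 genes, and replicate 1 of d0 was the highest of its group in 27. Without d22 replicate 6, 7 genes fell: Psma1, Psma5, Psmb5, Psmb6, Psmc4, Psmc5 and Psmd8, which passed whichever of the 8 libraries was left out. Without d0 replicate 1, and likewise without d0 replicate 4, 8 genes fell, and with quantile normalization of all libraries 8 fell and 1 rose. The shares of all entries called in these fits are not given here. With the replicate numbers fitted as a block, 0 genes fell. That fit adds a term for each replicate number, and several numbers occur in a single library. It leaves fewer degrees of freedom for the spread, so its count cannot be set beside the others.

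Beside this fall, the summed carcinoma-associated genes were at 6.00 to 8.17 RPKM at d22 and the summed genes of dividing cells at 1.195 to 11.1 RPKM, against 2.82 to 4.45 and 0.490 to 0.873 RPKM at d0. None of the 3 and 4 tested genes of these lists passed at d22. The summed leukocyte markers (17.4 to 63.0 RPKM against 25.8 to 47.9) and lung epithelium markers (1113 to 1600 RPKM against 777 to 1958) overlapped between the groups. Most of the leukocyte sum was the single gene Lyz2, at 15.8 to 58.1 RPKM at d22 and 24.0 to 40.9 RPKM at d0. The summed pan-endothelial markers were at 4940 to 5616 RPKM against 5906 to 7018 RPKM, with 0 of 11 genes passing. The part of other cell types in the result was not tested.

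**Figure D2:**
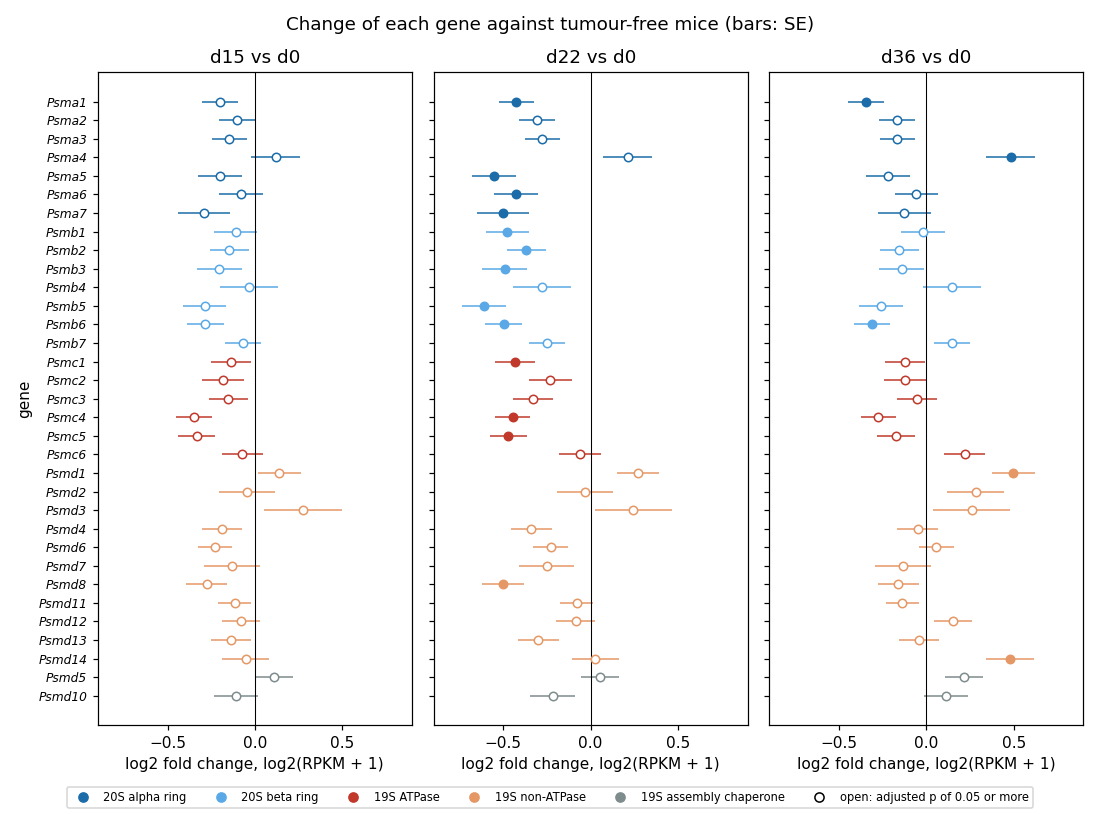
Log2 fold change (log2(RPKM + 1) scale) of each of the 33 genes against d0 at d15, d22 and d36; bars are standard errors, filled points have an adjusted p under 0.05. At d22, 13 points are filled, all on the lower side; at d36, 3 are filled on the higher and 2 on the lower side.

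Between d15 and d22 no gene of the family rose or fell (2% and 1.06% of all entries did). At an unadjusted p of 0.05, limma gave 7 as lower (7.75% of all entries) and 0 as higher (12.6%). The largest of these differences was that of Psmb1, with 143 ± 19.2 RPKM at d15 and 111 ± 17.8 RPKM at d22. Its log2 fold change was -0.37 ± 0.12 (adjusted p = 0.108). The libraries of Psma1, Psma6 and Psmc1 were lower without overlap (4.8% of all entries) and 0 genes were higher without overlap (10.2%). The log2 fold change was negative for 27 of 33 genes, against 43.9% of all entries. The lung epithelium markers summed to 1252 to 3411 RPKM at d15 and 1113 to 1600 RPKM at d22, with overlap. Their median log2 fold change was -0.80, with 0 of 6 tested genes passing. The part of other cell types was not tested here either.

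In mice with metastases (d36), 3 genes were higher than at d0, namely Psmd1, Psmd14 and Psma4, and 2 were lower, Psma1 and Psmb6. Of all tested entries 16.6% rose and 7.37% fell, so the share of the family that rose (9.09%) was below that of all entries and the share that fell (6.06%) was near it. At an unadjusted p of 0.05, 3 genes were higher (23.3% of all entries) and 3 lower (13.5%). Psmc6 and Psmd14 were higher without overlap (13.9%), and Psma1, Psmb3, Psmb5, Psmb6, Psmc4 and Psmd11 lower (7.47%). The log2 fold change was negative for 21 genes, against 45.1% of all entries, and the median was -0.06, against 0.04 for all entries.

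Psmd1 (chromosome 1, 86064387 to 86139151, plus strand) had 28.4, 20.6, 23.4 and 22.7 RPKM at d0 and 38.6, 33.4, 38.2 and 26.3 RPKM in replicates 1, 7, 8 and 9 of d36. Replicate 9 lay within the range of d0 and the other d36 libraries above it. The gene rose by 0.50 ± 0.12 on the log2(RPKM + 1) scale (SE, adjusted p = 0.00803), and it passed with each of the 8 libraries left out.

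Psmd14, the deubiquitinase of the 19S lid (chromosome 2, 61711694 to 61800376, plus strand), had 11.9, 8.73, 10.3 and 10.9 RPKM at d0 and 17.0, 13.5, 17.3 and 12.3 RPKM at d36. All d36 libraries were above all d0 libraries, and the gene rose by 0.48 ± 0.13 (adjusted p = 0.0169). Psma4 (chromosome 9, 54950790 to 54958030, plus strand) had 8.61, 7.43, 4.99 and 5.92 RPKM at d0 and 10.7, 8.20, 10.7 and 9.20 RPKM at d36. Its groups overlapped through replicate 7 of d36 and replicate 1 of d0, and it rose by 0.48 ± 0.14 (adjusted p = 0.0210).

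Psma1, an alpha subunit (chromosome 7, 114264606 to 114276118, minus strand), had 111, 94.7, 93.8 and 93.3 RPKM at d0 and 82.7, 68.0, 78.4 and 79.3 RPKM at d36. The groups did not overlap, and it fell by 0.35 ± 0.10 (adjusted p = 0.0210). Psmb6 had 52.3, 52.5, 60.3 and 56.9 RPKM at d36, all below its d0 libraries, and fell by 0.31 ± 0.11 (adjusted p = 0.0399). Psmb5 had 27.1, 34.3, 33.2 and 29.3 RPKM at d36, also below all d0 libraries, but its log2 fold change of -0.26 ± 0.12 did not pass (adjusted p = 0.138). Psmb7 had 19.4, 17.2, 20.1 and 17.8 RPKM, which overlapped with d0. The authors' deposited table gives the same 3 genes as higher, against 16.9% of all entries with an adjusted p there, and Psma1, Psmb6 and Psmc4 as lower, against 5.36%.

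Apart from Psmd1, these calls at d36 depended on single libraries. Without d36 replicate 1, or without replicate 8, only Psmd1 rose, and without replicate 9 there were 5 rises, the 3 above included. The falls numbered 0 without d0 replicate 1 or d36 replicate 7, and 1 without d0 replicate 2, 3 or 4 or d36 replicate 1. The median over all tested entries of a library was on average 0.14 higher at d36 than at d0 (log2), and with each library centred on its median 1 gene of the family (Psmd1) rose and 8 fell. Centring acts on all entries, and the share of them called in that fit is not given here.

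At d36 the summed genes of dividing cells were at 94.3, 60.6 and 65.3 RPKM in replicates 1, 7 and 8 and at 7.15 RPKM in replicate 9, against at most 0.873 RPKM at d0, and 4 of 4 tested genes rose. The leukocyte markers summed to 60.5 to 216 RPKM against 25.8 to 47.9 RPKM, with 6 of 7 tested genes higher while the defining Ptprc and Cd3e were not analysed here. All 3 tested carcinoma-associated genes rose, the lung epithelium markers summed to 413 to 1120 RPKM with 1 of 6 tested genes, Krt18, higher, and 3 of 11 pan-endothelial genes (Tie1, Egfl7 and Esam) fell. Psmd1, the call that did not depend on a single library, was lowest in replicate 9, the d36 library with the lowest carcinoma and dividing-cell levels, as was Psmd14. Psma4, which also rose, was lowest in replicate 7 (8.20 RPKM, against 9.20 RPKM in replicate 9). The part of these cells in the result was not tested.

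**Figure D3:**
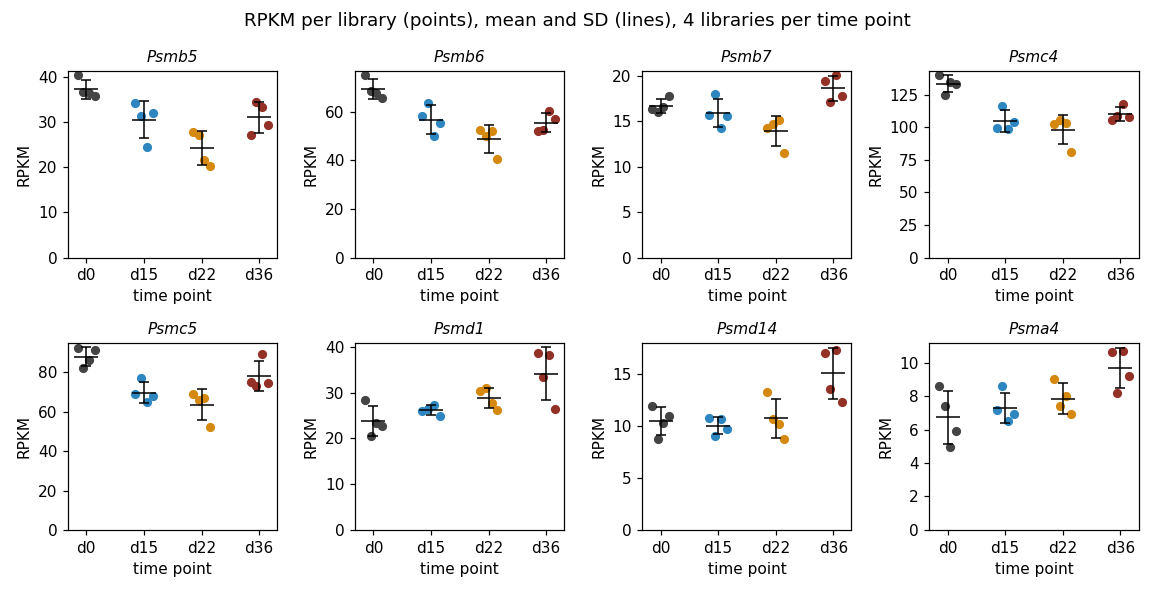
RPKM of the 3 catalytic genes, the ATPases Psmc4 and Psmc5, and the genes that rose at d36, by time point; points are libraries, lines are mean and SD of 4, and each axis starts at 0. Psmb5, Psmb6, Psmc4 and Psmc5 have their lowest mean at d22, while Psmd1, Psmd14 and Psma4 have their highest at d36.

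From d22 to d36, 3 genes rose and 0 fell (8.73% and 3.07% of all entries). Psmb7 had 14.3, 14.7, 15.2 and 11.5 RPKM at d22 and 19.4, 17.2, 20.1 and 17.8 RPKM at d36, without overlap, and rose by 0.40 ± 0.10 (adjusted p = 0.0188). Psmb1 (chromosome 17, 15475021 to 15499751, minus strand) had 120, 124, 116 and 84.9 RPKM at d22 and 141, 155, 162 and 148 RPKM at d36. It rose by 0.46 ± 0.12 (adjusted p = 0.0256), again without overlap. Psmd14 rose by 0.45 ± 0.13 (adjusted p = 0.0379), with overlapping libraries.

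At an unadjusted p of 0.05, 19 genes were higher at d36 than at d22 in limma (18.1% of all entries) and 0 lower (10.2%). Without overlap, 12 were higher (9.49% of all entries) and 0 lower (4.11%). The log2 fold change was negative for 1 of the 33 genes, against 45.5% of all entries, with a median of 0.28 against 0.03 for all entries. With the trend on transcript length and GC content removed, the median was 0.07. This comparison shares the d22 libraries with that of d22 and d0. Without d22 replicate 6 or d36 replicate 8 no gene passed, without d36 replicate 7 there was 1, and without d36 replicate 9 there were 11. With median centring, 0 genes rose.

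**Figure D4:**
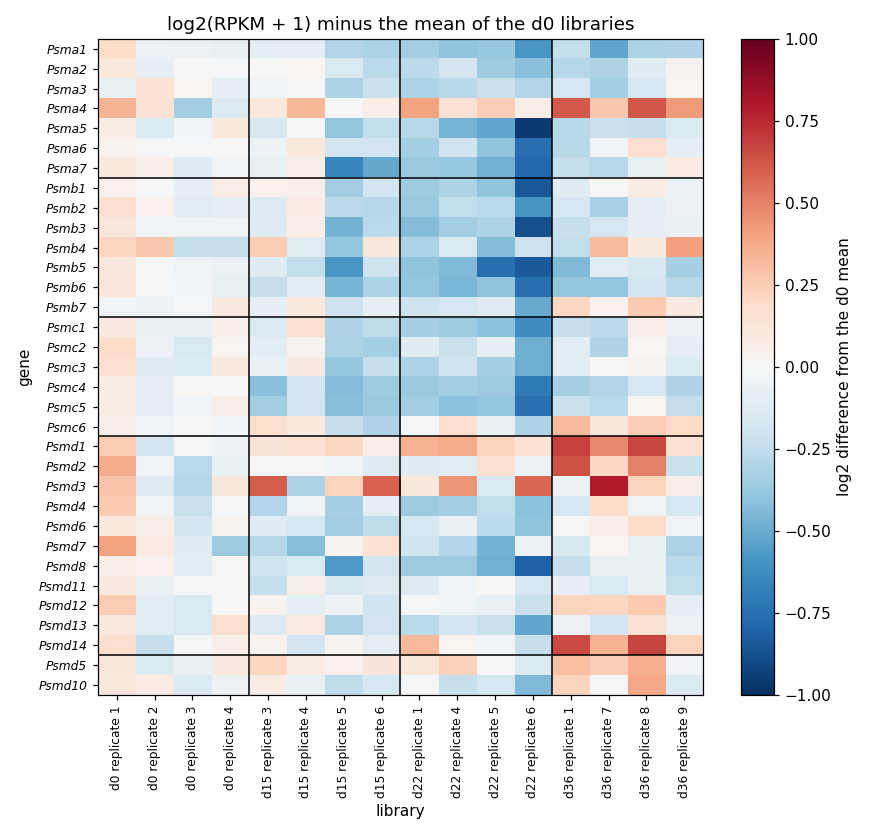
Difference of log2(RPKM + 1) from the mean of the d0 libraries for the 33 genes (rows, grouped by role) in the 16 libraries (columns, grouped by time point); blue is lower and red higher. The column of d22 replicate 6 is the darkest blue, and Psma4, Psmd1, Psmd2, Psmd3 and Psmd14 are the rows with the most red at d36.

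The 33 genes varied together across libraries. Over the 528 pairs the median of Pearson's r across the 16 libraries was 0.53, with 86.9% of the pairs above 0. It was 0.73 for the 91 pairs within the 20S particle and 0.46 for the 171 pairs within the 19S particle. The mean r was 0.45 for all pairs of the family, 0.63 for 20S pairs and 0.41 for 19S pairs. Over all pairs of tested entries, not matched for level or length, the mean r was 0.02. After the mean of each time point was subtracted, the median was 0.47 for all pairs, 0.60 for 20S pairs and 0.47 for 19S pairs. These correlations are descriptions, since all genes of a library share its depth and its scaling.

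In the levels, the ATPase Psmc3 had the highest mean r with the other genes (0.63), followed by Psmb1 (0.62). Psmd3 was the only one with a negative mean r (-0.18), and Psmd1 (0.09) and Psmd7 (0.10) were the next lowest. With the time-point means subtracted the order differed: Psmb6 (0.58) was highest, Psmd7 and Psmd3 (both -0.14) were lowest, and Psmd1 stood at 0.32. Psmd7, another lid subunit, had 7.38 to 13.2 RPKM at d0 and 6.76 to 9.37 RPKM at d22. The summed level of the 20S genes over that of the 19S genes was 0.904 to 0.988 in the d0 libraries and 0.780 to 0.858 in the d22 libraries, which did not overlap. At d15 the ratio was 0.886 to 0.989. In replicates 1, 7, 8 and 9 of d36 it was 0.832, 0.853, 0.860 and 0.978, so only replicate 9 lay within the range of d0.

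Short transcripts fell more than long ones at d22, within the family and in the table as a whole. For transcript length, taken from the longest GENCODE transcript, Spearman's rho with the log2 fold change of d22 against d0 was 0.55 over the 33 genes and 0.42 over the 9610 entries with a length, and for GC content it was -0.47 and -0.37. The family had a median length of 1581 bases, against 2908 bases for all. The shortest were Psmb3 (766 bases), Psmb6 (798 bases), Psmb2 (859 bases) and Psmb5 (899 bases), and all of these fell at d22. With the trend on length and GC removed from every comparison, 10 genes fell at d22, 7 of them among the 13 above, against 4.36% of the entries with a length, and the median of the family went from -0.30 to -0.17. Psmb5 still fell (by 0.36 ± 0.09, adjusted p = 0.0274). At d36 against d0 the same step left 0 rises (9.99% of those entries) and 8 falls (15.1%), and the median went from -0.06 to -0.17, the same as at d22. Psmd1 was then at 0.27 ± 0.10 (adjusted p = 0.0503). From d22 to d36 it left 0 rises (5.57%), and the median went from 0.28 to 0.07. These correlations are across genes, which are not independent replicates.

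**Figure D5:**
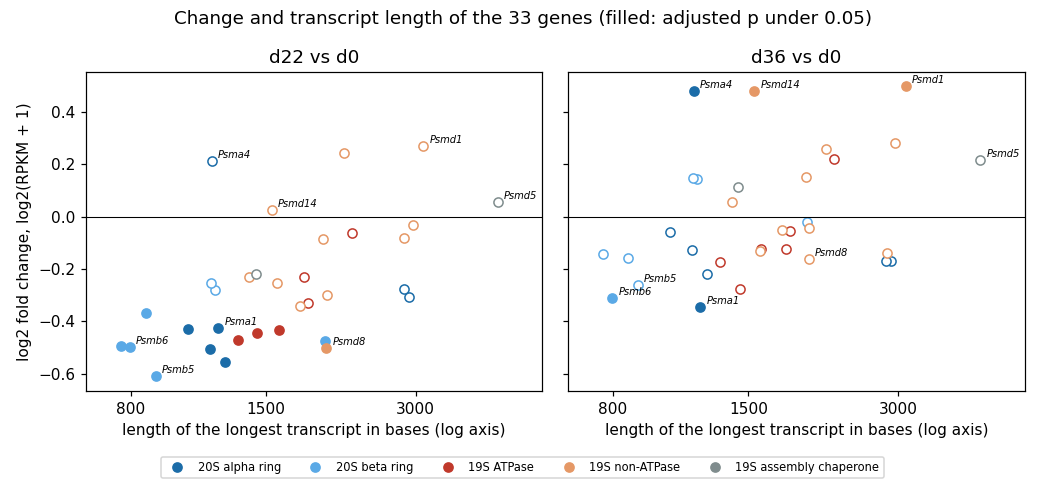
Log2 fold change against d0 at d22 and d36 plotted against the length of the longest transcript (log axis, bases) for the 33 genes, coloured by role; filled points have an adjusted p under 0.05. At d22 the filled points lie between 766 bases (Psmb3) and 1983 bases (Psmd8), and Psmd1 at 3112 bases is above 0.

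The immunoproteasome genes were well expressed in these cells, and levels are compared here per length. Psmb8, the partner of Psmb5, was at 224 ± 65.2 RPKM at d0 and 185 ± 29.7 RPKM at d22. Psmb9, the partner of Psmb6, was at 92.9 ± 25.3 and 68.6 ± 16.5 RPKM. Psmb10, the partner of Psmb7, had 304, 237, 299 and 297 RPKM at d0, 191, 199, 205 and 144 RPKM at d22, and 147, 145, 187 and 220 RPKM at d36. Psmb10 fell at d22 (by 0.62 ± 0.16, adjusted p = 0.0156) and at d36 (by 0.71 ± 0.16, adjusted p = 0.00444), without overlap with d0. Psmb8 and Psmb9 did not pass, with log2 fold changes of -0.25 and -0.43 at d22 (adjusted p = 0.420 and 0.267) and of -0.38 and -0.63 at d36 (adjusted p = 0.158 and 0.0814).

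The ratio of Psmb10 to Psmb7 was 14.8 to 18.6 in the d0 libraries and 7.56, 8.44, 9.31 and 12.4 in replicates 1, 7, 8 and 9 of d36, all below d0. At d22 this ratio was 12.6 to 13.6, also below d0, and at d15 it was 12.2 to 14.9, which overlapped with d0. The ratio of Psmb8 to Psmb5 was 5.98 ± 1.41 at d0, 7.67 ± 0.784 at d22 and 5.54 ± 1.40 at d36. The ratio of Psmb9 to Psmb6 was 1.33 ± 0.287, 1.39 ± 0.209 and 1.10 ± 0.380. The last 2 ratios overlapped between the time points.

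Other genes of the pathway were taken by list. Of the 5 genes of 20S assembly, Psmg3, a chaperone of the alpha ring, fell at d15 (from 29.8 ± 1.72 to 17.5 ± 3.73 RPKM, adjusted p = 0.0352) and at d22 (to 17.6 ± 4.57 RPKM, adjusted p = 0.00700). Its libraries were 32.1, 28.1, 28.99 and 30.2 RPKM at d0 and 20.4, 20.4, 12.6 and 16.5 RPKM at d15. Pomp, which matures the core particle, fell at d22 (by 0.40 ± 0.11, adjusted p = 0.0268), and Psmg1 rose at d36 (adjusted p = 0.0318), at 2.07 and 3.00 RPKM on average. Of the activators, 3 were tested: Psme1, a subunit of the 11S cap, fell at d36 (by 0.45 ± 0.16, adjusted p = 0.0479), Psme3, the nuclear activator, rose at d36 (0.71 ± 0.22, adjusted p = 0.0238), and none passed at d15 or d22.

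Of 5 tested genes of 19S-associated proteins, Shfm1, a small lid subunit, fell at d22 (by 0.45 ± 0.13, adjusted p = 0.0270) and the deubiquitinase Uchl5 rose at d36 (0.59 ± 0.15, adjusted p = 0.0114). The 4 genes of transcriptional control, Nfe2l1, Nfe2l2 and the Nfe2l1-processing Ddi2 and Ngly1, gave no call in any comparison. Ddi2 came nearest at d22, with 7.77 ± 0.720 against 6.03 ± 0.691 RPKM (adjusted p = 0.0616). Among genes of ubiquitin and its delivery, Rps27a, a ubiquitin gene, rose at d36 from 22.5 to 32.8 RPKM (0.50 ± 0.15, adjusted p = 0.0235). Rad23b, a shuttle that brings marked proteins to the proteasome, rose from 2.00 to 4.21 RPKM (0.75 ± 0.23, adjusted p = 0.0260).

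The CCT chaperonin, another ring complex of many subunits, served for comparison. None of its 8 genes passed at d15 or d22 and 6 rose at d36, led by Tcp1 (0.93 ± 0.21, adjusted p = 0.00439), Cct8 and Cct6a. Its summed level was 848, 671 and 729 RPKM in replicates 1, 7 and 8 of d36 and 392.4 RPKM in replicate 9, against 394 to 462 RPKM at d0. The sum of the 33 proteasome genes at d36 was 1467, 1530, 1648 and 1500 RPKM, with replicate 9 inside the range of its group. The classes within this sum differed. The 19S non-ATPase genes summed to 370, 402, 400 and 328 RPKM, lowest in replicate 9, as were the assembly chaperones. The 20S genes summed to 666, 705, 762 and 742 RPKM, and replicate 9 was inside their range, as it was for the ATPases.

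Some values may hold reads of other loci. Among symbols made of a gene's name and the suffix -ps, GENCODE holds 1 pseudogene of Psmb5, 2 of Psmb6 and 1 of Psmb7. Pseudogenes under other names were not searched for, so any of the 33 genes may have more. How reads that fit several places were counted was not stated. Exons of 8 of the 33 genes overlap an annotated exon of another gene, 6 on the opposite strand. The largest overlap was that of Psmb7 with the protein-coding gene Nek6 (405 bases, opposite strand). Psma4 (with AY074887, 114 bases) and Psma5 (with 1700010K24Rik, 60 bases) are also among the 6. Psmb5 shares 109 bases with the same-strand microRNA gene Mir686. Psmd1 shares 301 bases with the same-strand gene model Gm21972. Whether the counting used strand was not given, so the share of such reads was not tested.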

How the data were processed

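The authors deposited 1 table of RPKM values per gene and library, together with their own adjusted p-values and log2 fold changes of each later time point, per the file headers. Those headers do not name the comparison group. STAR, DESeq2 and the build mm10 are named without versions or roles, per the submitters' processing notes; the annotation and gene lengths behind RPKM are not given in the sources used here. RPKM were analysed as log2(RPKM + 1), which understates changes of low genes, keeping 14303 entries (1 RPKM or more in 4 or more of 16 libraries). One limma fit (3.58.1, R 4.3.3; intensity trend, 4 groups, no covariate, tested on simulated data) gave two-sided tests, with Benjamini-Hochberg adjustment over all tested entries per comparison and a threshold of 0.05. "Rose" and "fell" refer to that threshold. Reads could not be recovered from the values (43.5 to 63.5% of low entries were whole within 0.1 read), so no count test was run, and counting error is not given. The members, lists and tests were chosen with earlier results of these data known. Library values are given for the catalytic genes and for up to 4 genes per direction that passed against d0 (2 otherwise), smallest p first, and up to 3 genes per list. Psmc4 and Psmc5 at d15, Psmb1 at d22 against d15, and the genes named for low or high correlation or direction were chosen after their values were seen. Length and GC came from GENCODE (GRCm38), and promoters from RefSeq. Replicate numbers were not taken as pairs, and the sample labels do not say whether they pair the libraries. Alternatives were other pseudocounts, filters, scalings, spread estimates, weights, a length and GC correction, a replicate block, and each library left out. Some genes of the ubiquitin list are not reported here.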

Additional observations from a re-analysis of the deposited data

Results flagged for a closer look

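In each group of 4 libraries, the highest and the lowest value of every gene of the family were compared with the rest by Dixon's criterion (gap over range, at its 95% limit). It marked 7 of 132 groups, and chance marks about 1 in 20. In d0 replicate 1, Psma1 was at 111.3 RPKM (the others 93.3 to 94.7) and Psmb3 at 67.5 RPKM (60.3 to 61.0). In d22 replicate 6, Psmc4 was at 81.3 RPKM (102 to 105) and Psmc5 at 52.1 RPKM (66.1 to 68.9). Psmd8 was at 39.2 RPKM in d15 replicate 5 (50.7 to 52.4), Psmc5 at 89.6 RPKM in d36 replicate 8 (72.9 to 75.4) and Psmd12 at 47.4 RPKM in d36 replicate 9 (58.8 to 60.8). Both values of d0 replicate 1 are high and both of d22 replicate 6 are low, the directions in which they widen the difference of d22 from d0.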

How the results depend on the processing

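For the genes of the family that passed, no log2 fold change reversed its sign in an alternative fit. The genes of the other lists were not part of this check. The balance of rises and falls at d36 did change, as given below. A pseudocount of 0.1, no filter, a stricter filter and a spread estimate without the intensity trend left every count of calls within 1.5 times. The 13 falls at d22 became 8 with quantile normalization (1 rise) and 17 with median centring, with array weights (1 rise; 1 fall at d15) or with only the groups compared. At d36 against d0 (3 rises, 2 falls), median centring gave 1 and 8, quantile normalization 1 and 5, removal of the length and GC trend 0 and 8, array weights 7 rises, and a fit of only the groups compared 0 falls. The 3 rises from d22 to d36 became 0 with median centring, quantile normalization, the trend removal or the fit of only the groups compared, and 17 with array weights. Leaving out single libraries gave 7 to 13 falls at d22, 1 to 5 rises and 0 to 2 falls at d36, and 0 to 11 rises from d22 to d36. Same-numbered libraries did not deviate together (r from -0.11 to 0.22), and with the replicate block the falls at d22 became 0. The block was fitted only for the comparisons among d0, d15 and d22, and it leaves fewer degrees of freedom for the spread. Whether same-numbered libraries share a batch is not stated and was not tested. An added alternative, chosen after seeing the data, kept only entries with a length and gave 14 falls at d22. The cause of these changes was not tested. Apart from the length and GC step, the share of all entries called in each alternative is not given here. These counts of the family therefore stand without a background. RPKM without counts limit the precision for genes of a few RPKM.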
